A study of Mus musculus with 12 samples.

Results

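The p53 pathway was followed through 7 genes: Trp53, which encodes p53 itself, and the p53 targets Mdm2, Cdkn1a, Ccng1, Fas, Sesn1 and Gadd45a. Every probe set annotated to 1 of these genes was taken, which gave 8 of the 12488 probe sets of the table and 6 of the 8251 genes with a probe set. Cdkn1a and Fas have a pair of probe sets each, the other measured members 1 each, and Trp53 was not analysed here. RNA of suspended thymus cells was read on Affymetrix arrays, and values are log2 intensities per probe set. The 8 TEL-JAK2 arrays hold leukemic cells from the thymus of terminally ill mice that carry the fusion of TEL (Etv6) with the tyrosine kinase JAK2, and the 4 wild-type arrays hold thymocytes of mice aged 2 months. All mice were of the C57Bl/6 strain. The sources used here give neither the promoter that drives the fusion nor the age of the leukemic mice. Nothing states that each array is another animal, and the p-values below then cover only the spread of these samples, which may be technical.

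p53 is a transcription factor that is stabilised by DNA damage and oncogenic stress and switches on genes of growth arrest, repair and cell death. One of its targets, Mdm2, encodes the ubiquitin ligase that marks p53 for degradation and so closes a feedback loop. The p53 gene is known as a tumour suppressor of the T lineage, since mice without it develop thymic lymphoma.

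The arrays were alike in brightness, with medians of 66.5 to 70.1 in leukemias and 68.6 to 70.2 in thymocytes on the linear scale. The control level of an array, here the 95th percentile of its 19 probe sets for non-mouse transcripts, lay between 5.20 and 5.59 on the log2 scale. The T-lineage markers went with the labels, since the 10 measured of 11, among them Cd3e and Cd3g of the T cell receptor complex, the coreceptor genes Cd4 and Cd8a, and Thy1, were above the control level on all 12 arrays. Of these 10, Cd2 rose and Cd5, Cd247 and Cd4 fell. None of 14 macrophage markers passed limma's test (3 had an unadjusted p under 0.05). All 14 had a log2 change above 0, with a median of 0.53. Their mean score ran from -0.20 to 1.5 in leukemias, against -0.15 to 0.17 in thymocytes. Adgre1 and Lgmn were each above the control level in 2 leukemias and no thymocyte array. None of 6 B-lineage markers (1 with an unadjusted p under 0.05), 4 erythroid markers (0) or 3 NK markers (0) passed, and the NK markers lay below the control level on every array. Of the 10 epithelial and stromal markers Epcam rose, above the control level in 2 leukemias and no thymocyte array, and Krt18 fell, at values under that level on all 12 arrays. Mitosis genes were lower in leukemia (10 of 14 fell and 0 rose), with mean scores of -1.45 to -0.40 in leukemias and -0.17 to 0.29 in thymocytes. The part of the macrophage and mitosis scores in the results below was not tested beyond the values given there.

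The p53 targets did not move one way. Cdkn1a and Ccng1 were higher in TEL-JAK2 leukemia than in wild-type thymocytes, and Mdm2, Fas, Sesn1 and Gadd45a were lower. The decreases of Fas and Sesn1 exceeded 1 on the log2 scale, and the increases were smaller. Of the 7 probe sets tested 3 rose and 4 fell at an adjusted p under 0.05 by limma with Benjamini-Hochberg adjustment over all probe sets, where 4.65% of all 12422 probe sets rose and 9.88% fell. The leukemias lay above every thymocyte array for 2 of the 7 and below every one for 4, against 3.84% and 6.84% of all probe sets. Counted by gene, each by its brightest probe set, 2 of 6 rose and 4 fell, against 5.41% and 11.9% of all 8251 genes (17.3% in either direction). The leukemias lay above every thymocyte array for 1 of the 6 genes and below every one for 4, against 4.21% and 8.11% of all genes. In bulk samples, fewer cells that express a gene and less RNA per cell cannot be told apart.

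**Figure D1:**
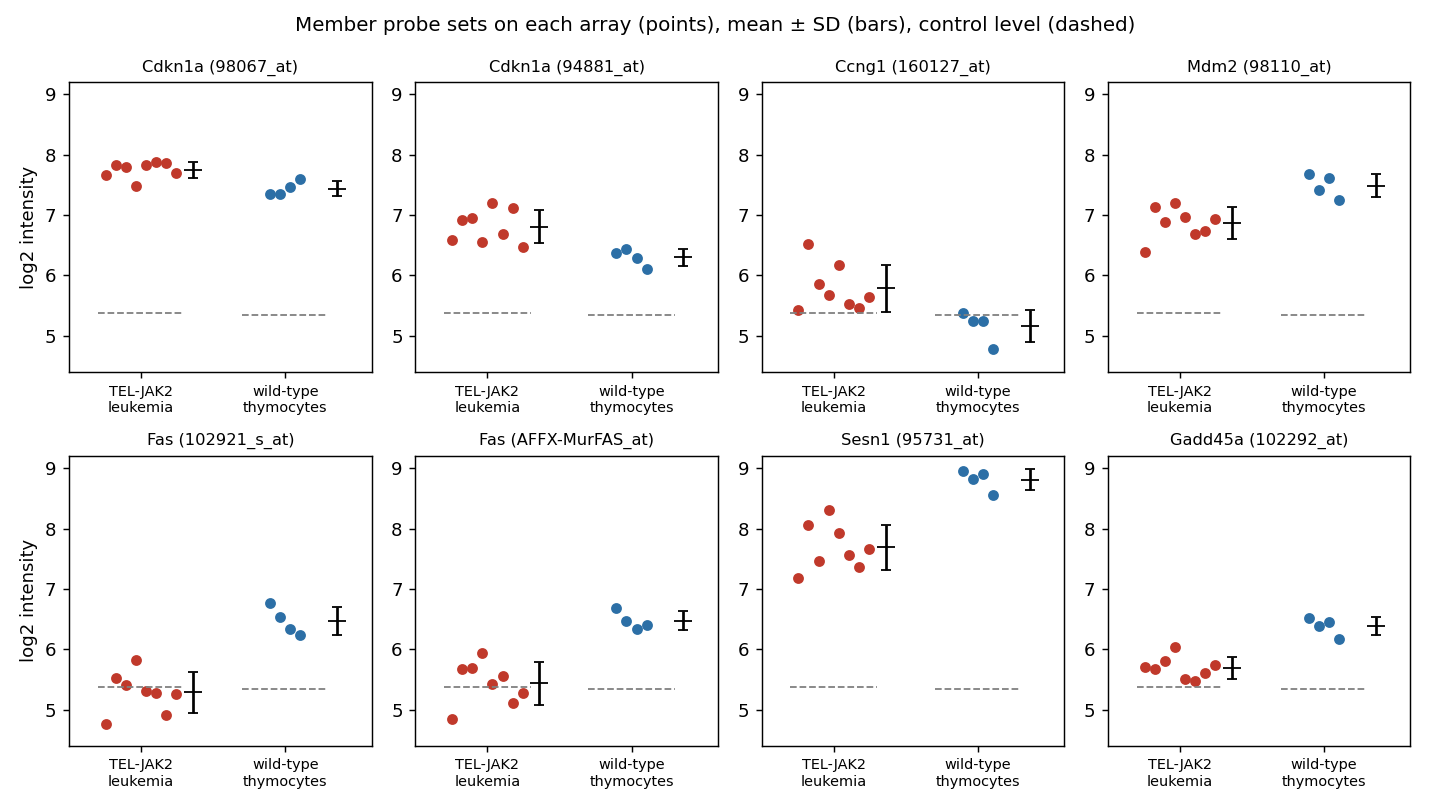
Log2 intensity of the 8 member probe sets in TEL-JAK2 leukemias (red, left, n = 8) and wild-type thymocytes (blue, right, n = 4), 1 point per array, with mean ± SD beside them and the mean control level of each group as a dashed line; for Cdkn1a and Fas the first and second probe sets stand left and right. Cdkn1a and Ccng1 sit higher in leukemia, Mdm2, Fas, Sesn1 and Gadd45a lower, and the Fas leukemia points and the Ccng1 thymocyte points lie around the control level.

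Cdkn1a encodes p21, an inhibitor of cyclin-dependent kinases and the best known effector of p53-driven growth arrest. Its first probe set had log2 values of 7.48 at the lowest, 7.81 at the median and 7.87 at the highest in leukemias, against 7.35, 7.34, 7.46 and 7.60 in thymocytes. Leukemia 4, at 7.48, was the only leukemia within the thymocyte range. The mean was 7.75 ± 0.13 (SD, n = 8) in leukemias and 7.44 ± 0.12 (SD, n = 4) in thymocytes, a log2 change of 0.32 (SE 0.08, limma adjusted p = 0.0208). The second ran from 6.47 to 7.21 with a median of 6.80 in leukemias, against 6.37, 6.44, 6.29 and 6.10 in thymocytes, so the groups did not overlap. Its log2 change was 0.51 (SE 0.14, limma adjusted p = 0.0224), a 1.43-fold difference where the first probe set gave 1.24-fold. When the macrophage score entered the model, the first probe set no longer passed (log2 change 0.26, limma adjusted p = 0.0854) and the second did (0.31, limma adjusted p = 0.0464). The first did not pass without thymocyte array 1, 2 or 3 (adjusted p up to 0.0872), nor the second without thymocyte array 1, 3 or 4 (up to 0.0756).

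p53 acts by binding DNA at paired half-sites, and the start regions of Cdkn1a, Ccng1, Mdm2 and Gadd45a are shown. Whether a match goes with the direction of change was not tested. Sequences are RefSeq windows of GRCm38.p6 from 250 bases before to 50 after a gene's start, read along the gene, and capitals mark matches to the 10-base p53 half-site consensus, which reads the same on both strands. All 7 genes had at least 1 such window, with or without a half-site, which gave 9 windows.

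Cdkn1a, upstream start, chr17:29090729-29091028 (+ strand): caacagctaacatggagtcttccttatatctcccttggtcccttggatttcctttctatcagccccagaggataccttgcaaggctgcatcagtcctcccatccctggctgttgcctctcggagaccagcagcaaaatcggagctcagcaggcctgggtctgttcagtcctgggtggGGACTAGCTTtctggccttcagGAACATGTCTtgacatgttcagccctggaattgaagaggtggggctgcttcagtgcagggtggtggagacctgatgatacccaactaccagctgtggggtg
Ccng1, chr11:40755237-40755536 (- strand): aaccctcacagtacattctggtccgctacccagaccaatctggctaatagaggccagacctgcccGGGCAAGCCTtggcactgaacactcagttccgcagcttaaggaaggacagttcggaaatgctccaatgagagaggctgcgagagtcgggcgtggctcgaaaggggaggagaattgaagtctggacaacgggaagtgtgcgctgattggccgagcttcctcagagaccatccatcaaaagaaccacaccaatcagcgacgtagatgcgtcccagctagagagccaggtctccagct
Mdm2, chr10:117710709-117711008 (- strand): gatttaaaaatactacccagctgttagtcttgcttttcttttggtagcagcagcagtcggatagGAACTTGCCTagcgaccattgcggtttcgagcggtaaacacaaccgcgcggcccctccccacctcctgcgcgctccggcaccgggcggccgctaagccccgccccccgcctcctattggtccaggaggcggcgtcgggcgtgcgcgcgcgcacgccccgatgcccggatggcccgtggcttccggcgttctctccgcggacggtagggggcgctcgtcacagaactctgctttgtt
Gadd45a, chr6:67037358-67037657 (- strand): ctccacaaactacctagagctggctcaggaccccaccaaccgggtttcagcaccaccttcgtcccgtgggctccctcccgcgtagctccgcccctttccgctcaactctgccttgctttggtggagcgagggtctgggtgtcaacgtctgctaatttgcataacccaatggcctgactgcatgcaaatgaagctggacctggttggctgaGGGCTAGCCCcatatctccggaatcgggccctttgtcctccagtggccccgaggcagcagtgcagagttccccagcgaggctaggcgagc

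At least 1 half-site stood in 6 of the 9 windows and in 8.36% of all 32851 windows. A run of 20 bases that departs from a pair of adjoining half-sites at no more than 1 position was found in 0.0883% of all windows. It was found in 2 of the 9, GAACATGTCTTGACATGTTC from 51 bases before the upstream start of Cdkn1a, and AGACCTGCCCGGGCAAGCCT from 195 bases before the start of Ccng1. A pair of half-sites that match in full, with up to 13 bases between them, was found in 0.0731% of all windows. Of the 9 windows 1 had it, the upstream window of Cdkn1a, while the Ccng1 window held 1 full half-site. Full half-sites that adjoin were found in 0 of the 9 and in 0.00913% of all windows. The upstream start of Cdkn1a lies 2790 bases before its second annotated start, whose window held no half-site. Mdm2 had the half-site GAACTTGCCT, Gadd45a GGGCTAGCCC and 1 of 2 windows of Sesn1 AAGCTTGTTT, while the Fas window had none. The window of Trp53 had the half-site GGACTTGCCC. Sequence outside these windows was not searched, so a window without a match does not show that a gene lacks a p53 site. The searches were made after the values were seen. A match is a run of letters, and binding was not measured.

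Ccng1 encodes cyclin G1, a p53 target that recruits a phosphatase to Mdm2. Its probe set ran from 5.43 to 6.53 on the log2 scale with a median of 5.66 in leukemias, against 5.37, 5.24, 5.25 and 4.78 in thymocytes. All leukemias lay above all thymocyte arrays, by as little as 0.06 between the nearest arrays, with leukemias 2 and 5 the highest at 6.53 and 6.18. Only 1 of 4 thymocyte arrays was above its control level, against 7 of 8 leukemias, and setting values under that level to it gave at least a 1.32-fold increase. The measured log2 change of 0.62 (SE 0.19) had a limma adjusted p of 0.0447. It did not pass when any of the 4 thymocyte arrays, or leukemia 3, 5 or 8, was left out (limma adjusted p from 0.0333 to 0.146 over the 12 arrays left out in turn), nor when the macrophage score entered the model (0.58, limma adjusted p = 0.117).

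Mdm2, the negative regulator of p53, moved opposite to those targets. Its probe set ran from 6.39 to 7.20 with a median of 6.91 on the log2 scale in leukemias, against 7.67, 7.41, 7.61 and 7.25 in thymocytes. Leukemia 1 was the lowest and leukemia 4, at 7.20, came within 0.05 of the lowest thymocyte array, without overlap. The mean was 6.87 ± 0.26 (SD, n = 8) in leukemias and 7.49 ± 0.19 (SD, n = 4) in thymocytes. The log2 change was -0.62 (SE 0.14, limma adjusted p = 0.00753).

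Fas, the death receptor whose trimers recruit Fadd and Casp8, had the largest measured decrease, and whether it differed from that of Sesn1 was not tested. Its first probe set ran from 4.76 to 5.82 with a median of 5.29 in leukemias on the log2 scale, against 6.77, 6.53, 6.34 and 6.23 in thymocytes. All 4 thymocyte arrays were above the control level and 3 of 8 leukemias were, so the difference is given as at least 2.00-fold lower in leukemia. The measured log2 change was -1.18 (SE 0.17, limma adjusted p = 0.000421). The second probe set, AFFX-MurFAS_at, carries an Affymetrix control name and was outside the table tested. It ran from 4.84 to 5.94 with a median of 5.49 in leukemias, of which 5 of 8 were above the control level, against 6.69, 6.46, 6.34 and 6.40 in thymocytes. Added to the table, it gave a log2 change of -1.03 (SE 0.17, limma adjusted p = 0.00105), an alternative chosen after seeing the data. With values under the control level set to that level, the second probe set was at least 1.86-fold lower in leukemia. The name of the first probe set marks possible cross-hybridization. Across the 8 leukemias the pair varied together (r of Pearson 0.963, p = 0.000149 by exact permutation and 0.000298 adjusted for the 2 genes with a pair of probe sets; rho of Spearman 0.952, p = 0.00114 by exact permutation and 0.00228 adjusted; r = 0.890 without the 2 leukemias farthest from the median), where the pair of Cdkn1a had r = 0.664 and did not pass (exact permutation p = 0.0612; rho = 0.643, exact permutation p = 0.0962; r = 0.589 without the 2 farthest).

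Sesn1 encodes sestrin 1, a stress-induced protein that restrains the growth kinase complex mTORC1. Its probe set ran from 7.19 to 8.31 with a median of 7.61 in leukemias on the log2 scale, against 8.95, 8.83, 8.91 and 8.56 in thymocytes. The groups were 0.25 apart at their nearest arrays, leukemia 4 and thymocyte array 4. The log2 change was -1.12 (SE 0.18, limma adjusted p = 0.000896), which is 2.17-fold lower in leukemia. Gadd45a, a growth arrest and DNA damage gene, ran from 5.47 to 6.03 with a median of 5.68 in leukemias, against 6.52, 6.39, 6.45 and 6.17 in thymocytes. The groups did not overlap, all 12 arrays were above the control level, and the log2 change was -0.69 (SE 0.10, limma adjusted p = 0.000505), or 1.61-fold lower. Some leukemias lay near the control level for Gadd45a, with 5.70 against 5.54 in leukemia 1 and 5.47 against 5.31 in leukemia 6.

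Some array titles carry a number of 4 digits, which splits each group, into 4 and 4 leukemias and 3 and 1 thymocyte arrays, and whether it marks a batch is not known here. Within arrays with such a number the log2 changes were 0.35 and 0.54 for the first and second Cdkn1a probe sets, 0.77 for Ccng1, -0.52 for Mdm2, -1.03 for Fas, -0.96 for Sesn1 and -0.70 for Gadd45a, and all 7 passed limma's test (adjusted p from 0.00195 to 0.0474). Within the others, with 1 thymocyte array assumed to vary like the leukemias, they were 0.17, 0.61, 0.73, -0.57, -1.18, -1.12 and -0.54 in the same order. None of these 7 passed limma's test there (adjusted p from 0.139 to 0.866), and 1 higher and 4 lower had an unadjusted p under 0.05. With the title number as a block the changes were 0.29, 0.56, 0.76, -0.53, -1.08, -1.01 and -0.65, and all 7 passed (adjusted p from 0.000119 to 0.0270).

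A pair of probe sets is annotated to the pseudogene Trp53-ps, which is no member, and how far they read Trp53 RNA was not tested. One, whose name marks possible cross-hybridization, ran from 6.03 to 6.27 on the log2 scale in leukemias, against 5.89, 6.02, 5.75 and 5.92 in thymocytes, and rose by 0.26 (SE 0.07, limma adjusted p = 0.0253). The other ran from 7.35 to 7.66 in leukemias, against 7.30, 7.50, 7.62 and 7.51 in thymocytes, with a log2 difference of -0.01 (SE 0.08, limma adjusted p = 0.968), so the pair disagreed.

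Among the 8 leukemias the members differed in how far they spread. The log2 distance between the lowest and highest leukemia was 1.12 for Sesn1, 1.09 for Ccng1, 0.81 for Mdm2 and 0.57 for Gadd45a. It was 1.06 for the first Fas probe set and 1.10 for the second, and 0.40 and 0.74 for the first and second of Cdkn1a. Leukemia 1 was the lowest for Mdm2, Fas, Sesn1 and Ccng1. Leukemia 4 was the highest for Mdm2, Fas, Sesn1 and Gadd45a and the lowest for the first Cdkn1a probe set. These values follow the title number in part, since the leukemias that carry the number and the others averaged 7.05 and 6.68 for Mdm2, 7.94 and 7.44 for Sesn1, 5.52 and 5.05 for Fas, and 6.06 and 5.52 for Ccng1.

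**Figure D2:**
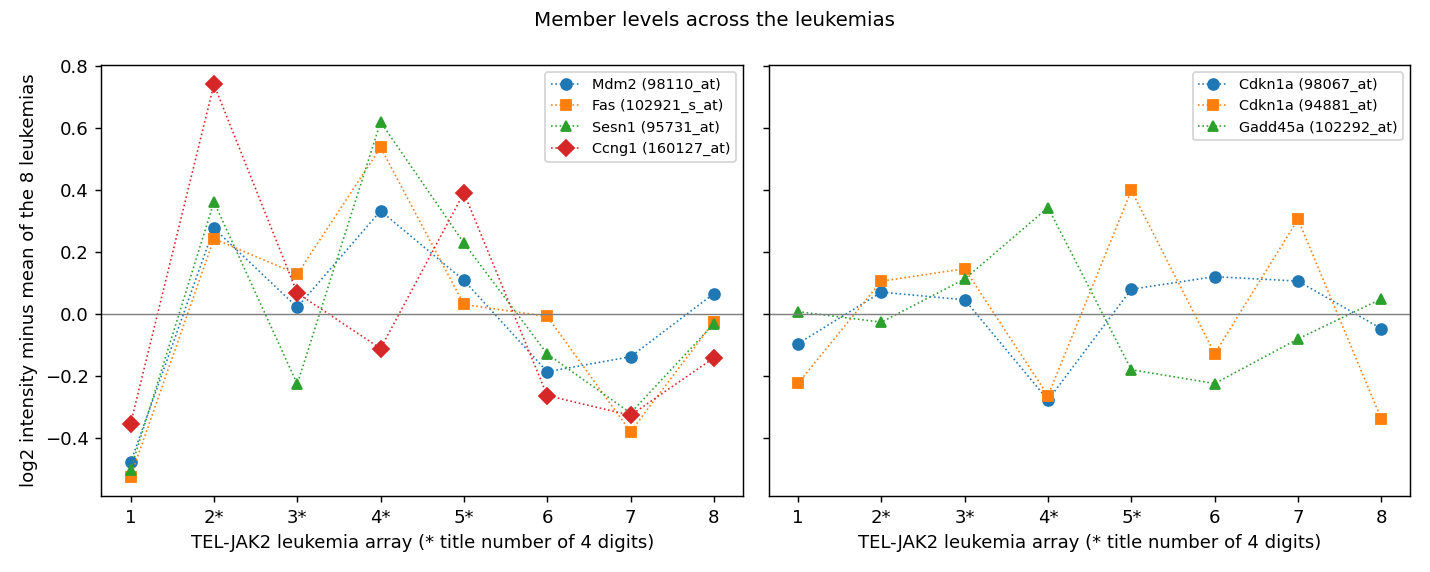
Log2 intensity of each member probe set, except the second of Fas, minus its mean over the 8 TEL-JAK2 leukemias, by leukemia array (asterisk: title number of 4 digits). Dotted lines join 1 probe set and carry no order. Left, Mdm2, Fas and Sesn1 lie low in leukemia 1 and high in leukemia 4, and Ccng1 is highest in leukemia 2; right, Gadd45a is highest and both Cdkn1a probe sets are below their means in leukemia 4.

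The 15 pairs of member genes were compared over the 8 leukemias, each gene by its brightest probe set. Mdm2 went with Sesn1 (r of Pearson 0.911, exact permutation p = 0.00169, adjusted to 0.0170 for the 15 pairs; rho of Spearman 0.929, exact permutation p = 0.00223, adjusted 0.0335; r = 0.842 without leukemias 1 and 4). Mdm2 also went with Fas (r = 0.899, exact permutation p = 0.00340, adjusted 0.0170; rho = 0.833, exact permutation p = 0.0154, adjusted 0.0577; r = 0.706 without leukemias 1 and 4). Fas and Sesn1 had r = 0.891 (exact permutation p = 0.00300, adjusted 0.0170; rho = 0.833, exact permutation p = 0.0154, adjusted 0.0577; r = 0.677 without leukemias 1 and 4). Cdkn1a, by its first probe set, ran against Gadd45a (r = -0.859, exact permutation p = 0.00853, adjusted 0.0320; rho = -0.881, exact permutation p = 0.00724, adjusted 0.0543; r = -0.694 without leukemias 1 and 4). The second Cdkn1a probe set was not compared with Gadd45a, and it had r = 0.664 with the first (exact permutation p = 0.0612). Its lowest value was 6.47 in leukemia 8, against 6.55 in leukemia 4, so the opposition is given for the first probe set only.

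Without leukemia 1, or without leukemia 2, no pair passed at the adjusted threshold, with r = 0.901 and 0.895 for Mdm2 and Sesn1 (exact permutation, adjusted p = 0.0565 and 0.0513). The pair of Cdkn1a and Gadd45a had r = -0.610 without leukemia 4 (exact permutation, adjusted p = 0.301). Leukemia 4 stands apart for the first Cdkn1a probe set and for Gadd45a, by 45.7% and 40.6% of the range of the leukemias. After the mean of each title class was removed from its leukemias, Mdm2 and Sesn1 had r = 0.819, and Cdkn1a and Gadd45a r = -0.872 (both exact permutation p = 0.00521, adjusted 0.0391). There Mdm2 with Fas had r = 0.769 and Fas with Sesn1 r = 0.775, and neither passed (both exact permutation, adjusted p = 0.156). The 4 leukemias of each kind are too few for a value within each. The remaining 11 pairs did not pass over all 8 leukemias, with r from -0.390 for Cdkn1a and Sesn1 to 0.655 for Mdm2 and Ccng1 (exact permutation, adjusted p = 0.470 and 0.245). Ccng1 had rho = 0.786 with Mdm2, 0.810 with Fas and 0.738 with Sesn1 (exact permutation, adjusted p = 0.0698, 0.0653 and 0.0982). Without leukemias 1 and 4 Mdm2 and Ccng1 had r = 0.915, and without leukemias 2 and 5 Ccng1 and Sesn1 had r = 0.409. Without leukemia 4 alone Ccng1 and Sesn1 had r = 0.894 (exact permutation, adjusted p = 0.0446). After removal of class means Ccng1 had r = 0.209 with Mdm2, -0.136 with Fas and 0.125 with Sesn1.

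**Figure D3:**
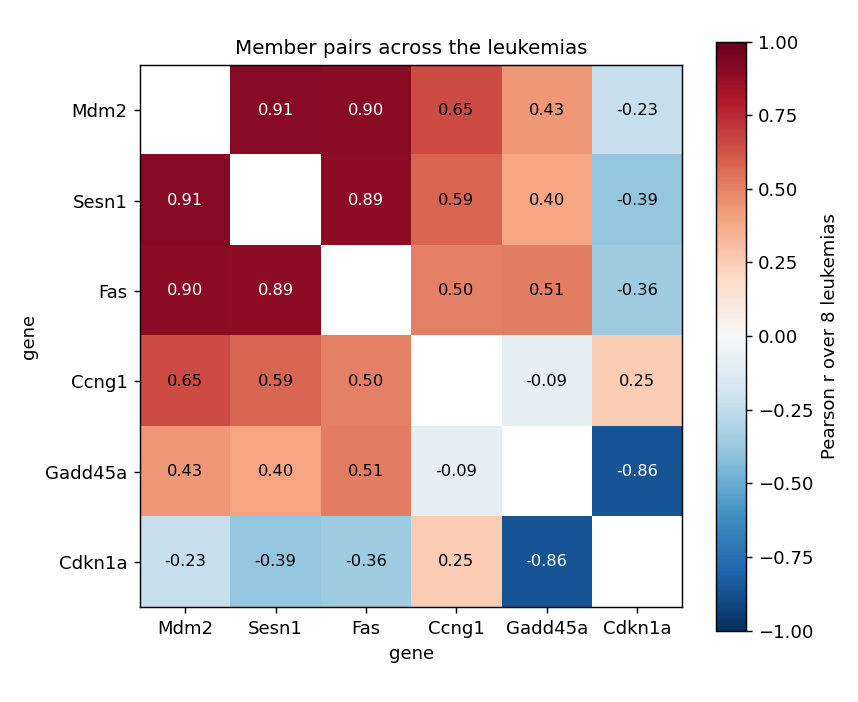
Pearson r of each pair of member genes over the 8 TEL-JAK2 leukemias (rows and columns: genes; colour: r from -1 to 1). Mdm2, Sesn1 and Fas have r from 0.89 to 0.91 with each other, and Ccng1 has r from 0.50 to 0.65 with them. Cdkn1a, by its first probe set, and Gadd45a have r = -0.86.

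The genes whose levels across the 8 leukemias were most like those of a member were taken from 5905 genes above the mean control level of the leukemias (5906 for Fas), and are given as a description. For Mdm2 they were Qrich1 (r = 0.985) and Otud5 (0.978), for Sesn1 Bcl7b (0.980) and Pik3c3 (0.978), and for Fas Saraf (0.997) and Rnf4 (0.988). For Ccng1 they were Mthfd2 (0.946) and Ids (0.929), for Gadd45a Ocel1 (0.965) and Fadd (0.949), and for Cdkn1a Eya3 (0.892) and Lmo2 (0.866). These are the highest of all genes compared, over 8 arrays. Over all 12 arrays the same pairs had r from -0.203 for Gadd45a and Ocel1 to 0.978 for Mdm2 and Qrich1, with 0.0537 for Fas and Saraf.

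Most other genes of the pathway did not pass the test. Of 49 measured genes of 71 listed as regulators, further targets, Fas signalling genes or relatives of the members, 35 did not pass, 5 rose (10.2%) and 9 fell (18.4%), with a median log2 change of -0.03. Over all 8251 genes 5.41% rose and 11.9% fell, with a median of 0.00366, and the difference between these shares was not tested.

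Among p53 regulators 14 of 20 were measured, of which 0 rose and 4 fell (7 had an unadjusted p under 0.05 by limma, and the median log2 change was -0.17). Chek1, a checkpoint kinase of replication stress, fell by 0.70 on the log2 scale (SE 0.12, limma adjusted p = 0.00134). The other checkpoint kinase gene, Chek2, fell by 0.24 (SE 0.06, limma adjusted p = 0.0138), a call lost without thymocyte array 1 (adjusted p = 0.0574) and when the macrophage score entered the model (0.0622). Mdm4, the relative of Mdm2 that inhibits p53, fell by 0.45 (SE 0.10). Mdm4 did not pass the exact rank-sum test (adjusted p = 0.170), and its change within arrays whose titles lack the number was -0.09. Thymocyte array 4, the only one of its group there, had the lowest Mdm4 value of its group at 8.02. Usp7, whose product removes ubiquitin from Mdm2 and p53, fell by 0.56 (SE 0.16, limma adjusted p = 0.0298) and did not pass when leukemia 3 or thymocyte array 1, 2 or 3 was left out (adjusted p up to 0.101), when the macrophage score entered the model (0.115) or by the exact rank-sum test (0.0515). Cdkn2a, whose Arf product blocks Mdm2, differed by 0.16 on the log2 scale (SE 0.08), which did not pass (limma adjusted p = 0.204).

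Of 16 further targets in growth arrest and stress 13 were measured, 1 rose and 0 fell (3 had an unadjusted p under 0.05, median log2 change 0.07). It was Ddit4, an inhibitor of mTORC1, with a mean log2 value of 9.76 ± 0.25 (SD, n = 8) in leukemias and 8.48 ± 0.18 (SD, n = 4) in thymocytes and a log2 change of 1.28 (SE 0.13, limma adjusted p = 2.81e-05). Btg2, an antiproliferative gene (-0.81, SE 0.31), Dusp1, a MAP kinase phosphatase (0.60, SE 0.24), and Phlda3, an inhibitor of Akt (0.27, SE 0.15), had log2 differences that did not pass. Of 10 targets in cell death 4 were measured, 0 rose and 1 fell (median log2 change -0.27). It was the pro-apoptotic gene Bid, by 0.39 (SE 0.09, limma adjusted p = 0.0111). The groups overlapped for Bid, and the call was lost within arrays that carry the title number (log2 change -0.33, limma adjusted p = 0.0860) and by the exact rank-sum test (adjusted p = 0.0515). Siva1 (-0.31), Apaf1 (-0.23) and Perp (-0.11) did not pass. Of 8 targets in DNA repair 5 were measured, 1 rose and 0 fell (median log2 change 0.13). The riser was Rrm2b, the p53-induced subunit of ribonucleotide reductase (log2 change 0.31, SE 0.07, limma adjusted p = 0.00713), and Ercc5 (0.36), Polk (0.13) and Xpc (-0.11) did not pass. The name of the Rrm2b probe set marks possible cross-hybridization.

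Of 8 genes of Fas signalling 5 were measured, 1 rose and 1 fell (median log2 change 0.02). The initiator caspase gene Casp8 rose by 0.39 (SE 0.11, limma adjusted p = 0.0309), a call lost when leukemia 3, 5 or 8 or any thymocyte array was left out (adjusted p up to 0.111) and by the exact rank-sum test (0.0515). Daxx, a Fas-binding protein gene, fell by 0.33 (SE 0.07). The ligand gene Fasl (0.35, above the control level in 4 of 8 leukemias and 0 of 4 thymocyte arrays) and Cflar, an inhibitor of Casp8 (-0.16), had log2 differences that did not pass. Among relatives of the members 9 of 11 were measured, 2 rose and 3 fell (median log2 change 0.01). Ccng2, the cyclin related to Ccng1, fell by 1.44 (SE 0.30), and Gadd45g, the relative of Gadd45a, rose by 0.78 (SE 0.21). Gadd45g did not pass without thymocyte array 1 (limma adjusted p = 0.0624). The kinase inhibitor gene Cdkn2c rose by 0.61 (SE 0.13), and Cdkn1c, a relative of Cdkn1a, fell by 0.39 (SE 0.08) with values under the control level on all 12 arrays.

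**Figure D4:**
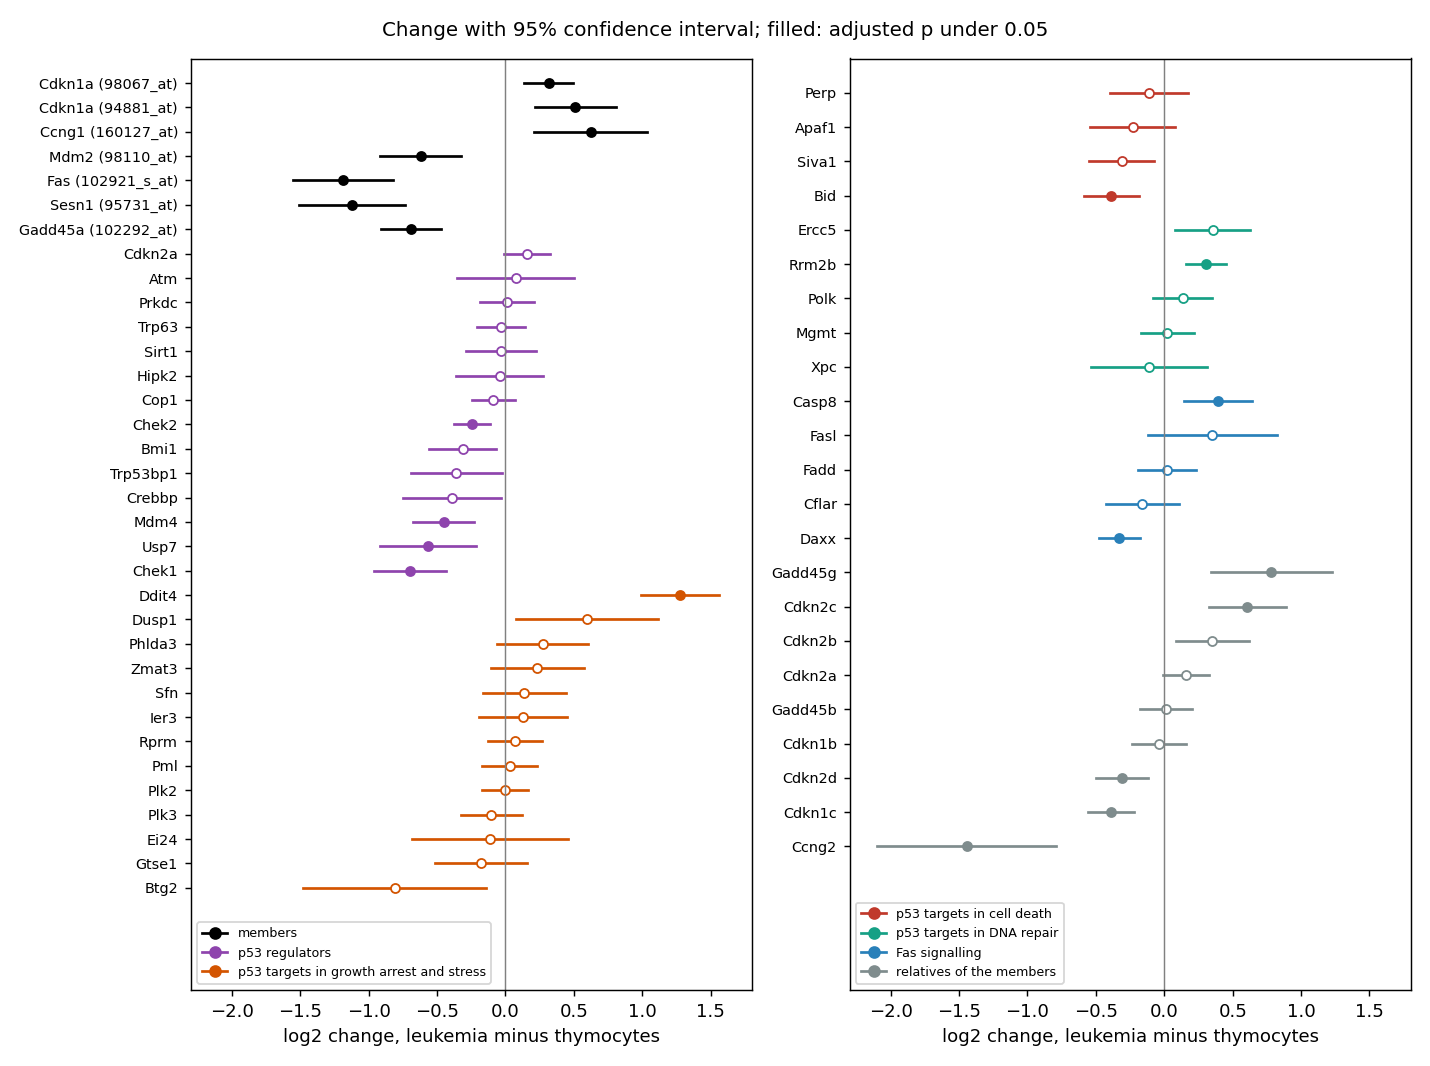
Log2 change of the tested member probe sets and of the listed p53 pathway genes, TEL-JAK2 leukemia minus wild-type thymocytes, with 95% confidence intervals (lines); filled points have a limma adjusted p under 0.05. Cdkn2a belongs to 2 lists and is drawn in both. The members lie on both sides of 0, with Fas and Sesn1 below -1, Ddit4 is at 1.28 and Ccng2 at -1.44.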

How the data were processed

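Total RNA of thymic cell suspensions was labelled with biotin and hybridised to Affymetrix arrays, per the labels' protocols. The authors deposited linear intensities of probe sets, and RMA is the tool that the submitters' processing notes name; the sources used here give no further step and no genome build. They were converted to log2 with no offset or further normalization. Of 12488 probe sets, 66 Affymetrix controls were left out and 12422 tested. The platform annotation gave 1 gene for 10833 of these, several for 396 and none for 1193, and symbols were updated through RefSeq (GRCm38.p6) for 10817. Where a gene had several probe sets, the one with the highest mean stood for it.

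Groups come from the genotype label, and replicates are numbered in the order of the deposit. The comparison used lmFit and eBayes of limma 3.58.1 (R 4.3.3; two-sided, no covariate), with Benjamini-Hochberg adjustment over all probe sets (members) or all genes (lists). Pairs of members were tested by exact permutation over the leukemias. Scores are means of log2 values minus the thymocyte mean. An "at least" fold sets values under an array's control level to that level. The scripts were tested on simulated data. The number of arrays limits the precision.

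Named genes are the members, up to 4 genes of each list with the largest moderated statistic, and 2 genes most like each member across the leukemias; Cdkn2a, and the pseudogene, markers and mitosis genes, were named beside them. The members, lists and alternatives were chosen with earlier results of these data known. The alternatives were the brighter probe sets, quantile normalization, median centring, trend and robust variance, array weights, each array left out, the title number as a block or alone, a macrophage covariate, a stricter threshold, an exact rank-sum test, the mean of a gene's probe sets, no cross-hybridizing probe sets and, for pairs, Spearman's rho. The second Fas probe set, arrays without a title number of 4 digits alone and the removal of their class means were chosen after seeing the data.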

Additional observations from a re-analysis of the deposited data

Results flagged for a closer look

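Each of these values lay apart from the other arrays of its group by a larger share of the group's range than the limit used for a single outlying value, which was found in 7 of 74 groups checked; chance gives about 1 in 20. None was a value of a member probe set. In leukemia 2 Ect2 was high at a log2 value of 7.09 (nearest 6.50), and in leukemia 1 Polk was high at 5.79 (nearest 5.49). In thymocyte array 1 Perp was high at 4.96 (nearest 4.56), though under the control level. There Ddit4 was high at 8.74 (nearest 8.41) and Phlda3 was low at 6.31 (nearest 6.40). Bid was low at 5.86 in thymocyte array 3 (nearest 6.16), and Mdm4 was low at 8.02 in thymocyte array 4 (nearest 8.53).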

How the results depend on the processing

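The 4 member probe sets that fell passed under 22 of 24 alternatives; the exceptions were the probe sets of above-median brightness, which kept 4 of the 7 member probe sets and called 2 of them higher and 2 lower (1 and 2 of 3 genes), and the arrays without a title number of 4 digits alone, where limma called 0 member probe sets or genes in either direction, 0 genes of the pathway lists in either direction and 0 mitosis genes (at an unadjusted p under 0.05: 1 and 4 member probe sets, 1 and 4 member genes, 3 and 5 list genes and 9 lower mitosis genes). The increases were less stable. Leaving out 1 array gave 0 to 3 member probe sets and 0 to 2 member genes higher in leukemia, 3 to 6 list genes higher, and 0 to 4 member pairs; fewer arrays enter each of these tests. At an adjusted p under 0.01 limma called 0 member probe sets and 0 member genes higher (3 and 2 at an unadjusted p under 0.05), and 3 list genes higher and 5 lower. With the macrophage score as a covariate 1 member probe set and 0 member genes were higher (3 and 2 at an unadjusted p under 0.05). The exact rank-sum test called 1 member gene higher (the first Cdkn1a probe set had adjusted p = 0.0591), and array weights called 9 list genes higher. Spearman's rho left 1 member pair and the removal of class means 2, in place of 4. Over all genes 446 rose and 983 fell, 996 and 1561 with array weights, 259 and 557 at an adjusted p under 0.01, 304 to 483 and 626 to 1135 with 1 array left out, and 1 and 3 in arrays without a title number of 4 digits. Over all probe sets 578 rose and 1227 fell, 1340 and 2060 with array weights, 333 and 675 at an adjusted p under 0.01, 390 to 618 and 759 to 1426 with 1 array left out, and 3 and 10 in arrays without such a number. No member probe set changed direction under any alternative that tested it. Of 617 values of 25 named list genes under the alternatives 559 kept their direction and side of the threshold, 38 no longer passed and 16 newly passed. The 4 that changed direction were not past the threshold: Xpc gave 0.0094 with the title-number block, 0.038 in arrays with a number of 4 digits and 0.062 with the macrophage covariate, and Perp 0.15 in arrays without such a number. Where no value above shows the cause, the cause was not tested. No paired analysis was possible because the labels give no replicate numbers that the groups share. Signal near the control level limits Fas in leukemia, Gadd45a in some leukemias, and Ccng1 in thymocytes and some leukemias. Ccng1 was at 5.43 in leukemia 1 and 5.65 in leukemia 8, where the control levels were 5.54 and 5.59.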
